A study of Mus musculus with 28 samples.

Results

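Hair germ cells of wild-type (WT) mice were sequenced by 2 protocols in the same series, SMART-seq and SHERRY2, and the transcripts that both protocols support are described here. The members are 4 of the 28 samples: the SMART-seq libraries of WT mouse 1 and mouse 2 and the SHERRY2 libraries of WT mouse 1 and mouse 2, taken by protocol, cell type and genotype from the labels. The series studies conditional knockout (cKO) of Alkbh5, an RNA demethylase that erases m6A, in hair follicle stem cells of the skin. All mice were at postnatal day 69. For each library, total RNA of cells sorted by flow cytometry was extracted with TRIzol, and 40 ng went into a hair germ library by either protocol, less than into a bulge library. The WT bulge libraries (2 mice, SHERRY2) and the hair germ libraries labelled cKO (2 mice by each protocol) serve as references. The sources used here give no sorting markers, knockout allele or Cre driver. Libraries are numbered 1 and 2 within each protocol and called mouse 1 and mouse 2 here, but the labels do not say that libraries with the same number share a mouse. Protocol, mice, the submitters' aligners, genome build and annotation all change together between the 2 sets of libraries, so their parts in any difference below cannot be told apart. Nor can fewer cells of a type and less RNA per cell be told apart in such bulk libraries.

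The hair germ is the small cluster of progenitor cells between the bulge, the niche of slow-cycling hair follicle stem cells, and the dermal papilla, the mesenchymal signalling centre at the base of the resting follicle. At the start of hair growth it divides before the bulge does, under rising Wnt and Hedgehog signals and falling BMP signals. SMART-seq makes cDNA by template switching, usually primed on the poly(A) tail, and amplifies it before fragmentation. SHERRY2 lets a Tn5 transposase cut and tag RNA/DNA hybrids directly, without second-strand synthesis. The sources used here do not name the primers of these libraries.

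The tables shared 46992 gene symbols after mitochondrially encoded genes were left out, and levels are given as CPM, a gene's reads scaled to a fixed library total over these symbols. On them the SMART-seq libraries held 11543597 reads (mouse 1) and 9382919 reads (mouse 2), and the SHERRY2 libraries 1501246 and 485687. A single read was therefore worth 0.0866 and 0.107 CPM by SMART-seq and 0.666 and 2.06 CPM by SHERRY2. The shallower SHERRY2 libraries nevertheless had reads on more symbols, 39768 and 38056 against 22548 and 22304 by SMART-seq. Of the SMART-seq reads, 15.2% and 13.8% lay on mitochondrial symbols, a class that the SHERRY2 table lists with 0 symbols.

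Olfactory and vomeronasal receptor genes, which are used by sensory neurons of the nose, gave a level for genes with no known use in these cells. Of 1697 such genes, 58 and 41 had a read by SMART-seq, and 1570 and 1476 by SHERRY2. They took 0.575% (95% Wilson interval 0.563 to 0.587%) and 1.34% (1.31 to 1.37%) of SHERRY2 reads, against 0.00253% and 0.00171% by SMART-seq. The intervals cover counting error only. The receptor genes sum to 5747 and 13408 CPM in the 2 SHERRY2 hair germ libraries and to 2.00 and 2.28 CPM in the 2 bulge libraries. These were made by the same protocol, but from more RNA and with more reads. The receptor level was thus high in the hair germ SHERRY2 libraries and near 0 in the bulge ones. A gene was called supported in a library if it had at least 10 reads and a CPM above the 99th percentile of the receptor genes there, which was 0.347 and 0.213 CPM by SMART-seq and 14.0 and 32.9 CPM by SHERRY2.

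All 4 libraries supported 6367 genes, or 13.5% of the shared symbols. These genes took 84.1% and 83.0% of the SMART-seq reads and 79.4% and 66.5% of the SHERRY2 reads. Of them 98.2% reached 1 CPM in both bulge libraries. Another 3127 genes were supported by SMART-seq and by 1 of the SHERRY2 libraries, and 95.1% of these reached 1 CPM in the bulge. SMART-seq alone supported 5790 genes, with a median exonic length of 2568 bases, and 47.4% of them carried predicted-gene names (Gm or Rik). Such names were on 0.942% of the genes supported by both and on 68.2% of the 28620 genes supported in no library. SHERRY2 alone supported 163 genes with a median exonic length of 10652 bases, against 5928 bases for the genes of both protocols, and 6 of these 163 reached 1 CPM in both bulge libraries. The counts of 5790 and 163 rest on the depth and the floor: with reads scaled to the shallowest library they were 736 and 544, and with 10 CPM asked of every library in place of the receptor floor they turned to 574 and 1401. The count supported by both went from 6367 to 9152 without SHERRY2 mouse 2, the shallowest library, and to 3985 with the floor set per kilobase of exon, a rule chosen after the data were seen.

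Over the 6367 genes, the median absolute log2 difference was 0.26 between the SMART-seq mice, 0.49 between the SHERRY2 mice and 0.74 between the protocol means. The protocols differed by less than 1 on the log2 scale for 4053 genes (63.7%), and the libraries of the protocols overlapped for 1938 genes (30.4%). Across these genes Pearson's r was 0.917 between the SMART-seq mice, 0.832 between the SHERRY2 mice and 0.633 between the protocol means, as a description over genes that share libraries. Against the mean of the bulge libraries, made by SHERRY2, r was 0.786 for the SMART-seq mean and 0.740 for the SHERRY2 hair germ mean. By both measures the mice of 1 protocol lay nearer to each other than the protocols did.

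**Figure D1:**
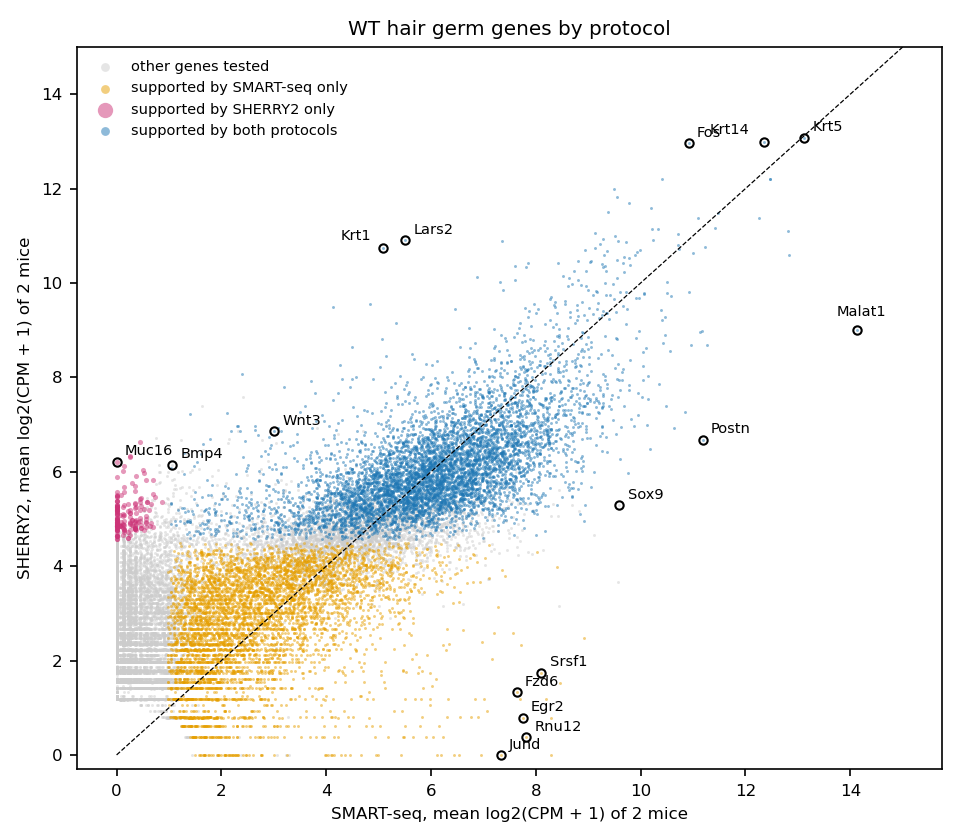
Mean level of each of 33619 tested genes by SMART-seq (x axis) and SHERRY2 (y axis), both as log2(CPM + 1) over 2 WT mice; colours give the support class and the dashed line equal levels. Genes supported by both protocols lie along the diagonal, those supported by SHERRY2 alone at the left edge, and Jund, Rnu12, Egr2, Fzd6 and Srsf1 near the bottom.

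Differences were tested with limma on log2(CPM + 1) for the 33619 genes with a mean of at least 1 CPM, two-sided, with Benjamini-Hochberg adjustment at 0.05. SMART-seq was higher for 1334 genes (3.97% of those tested) and SHERRY2 for 9104 (27.1%), together 31.0%. Of the 9104 genes higher by SHERRY2, 5822 had no SMART-seq read, 893 were olfactory or vomeronasal receptor genes, and 11.3% reached 1 CPM in both bulge libraries. Of the 1334 genes higher by SMART-seq, 90.6% did so. Among the 6367 genes supported by both, 766 (12.0%) were higher by SMART-seq and 563 (8.84%) by SHERRY2, with a median difference of 0.01. That split rests on the scaling: with TMM scaling the median of the same genes was 0.92 and the calls were 1356 and 182, and with edgeR's quasi-likelihood test on whole reads the median was 0.45 and the calls 1654 (26.0%) and 443 (6.96%). Over the 20199 genes that edgeR tested, it called 13.8% higher by SMART-seq and 22.0% higher by SHERRY2, 35.8% in all. Libraries did not overlap, with SMART-seq higher, for 13.0% of the 33619 genes and 35.4% of the 6367, and with SHERRY2 higher for 63.1% and 34.2%. With 2 mice a protocol the smallest adjusted p of limma was 0.0399, shared by 7356 genes, so the calls sit just inside the threshold. The total of 10438 calls went to 1529 without SMART-seq mouse 1, 1283 without SMART-seq mouse 2, 17176 without SHERRY2 mouse 1 and 7524 without SHERRY2 mouse 2, and to 0 with a pseudocount of 5.

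The genes with the highest level per kilobase in both protocols were 3 basal keratins, a lipid carrier, an immediate early factor, and genes of translation and the cytoskeleton. They were Krt14, Krt5, Krt15, Apoe, Rplp1, Fos, Eef1a1, Actb, Rps15 and Rplp0, ranked by the lower of the protocol means in TPM, a level per kilobase of exon scaled to a fixed sum. Krt5, the keratin of basal epithelial cells, stood at 8625 and 9230 CPM by SMART-seq and 8575 and 8715 CPM by SHERRY2. On the CPM scale all 4 libraries thus lay close together (log2 difference 0.05 ± 0.16, SE, and 0.51 in edgeR). Krt15, a keratin of the bulge and hair germ, had 6683 and 4835 CPM against 5473 and 4110 CPM, with overlapping libraries. Apoe, a lipid-transport protein, had 4708 and 6889 CPM against 5554 and 4046 CPM. Actb, a cytoskeletal actin, had 2901 and 2780 against 2702 and 3012 CPM, with a log2 difference of 0.46 in edgeR. Fos and Rplp0 were the 2 of these 10 genes that passed the test, both higher by SHERRY2.

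The smallest differences on the CPM scale among the genes supported by both were those of Dsg2, Wsb2, Ints9, Alkbh8 and Ralgps2. In edgeR, which scales otherwise, their log2 differences ran from 0.38 to 0.50. Dsg2, a desmosomal cadherin of cell junctions, had 99.7 and 134 CPM by SMART-seq and 125 and 107 CPM by SHERRY2. Ints9, a subunit of the Integrator complex that cleaves small nuclear RNA transcripts, had 45.1 and 64.9 CPM against 46.0 and 63.8 CPM. The mice of each protocol spread across the same range in both genes, which were picked for a small difference.

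Of the 18 hair germ genes, 16 were supported by SMART-seq, 8 by SHERRY2 and 8 by both. Over all shared symbols these counts were 15284, 6629 and 6367, so the drop from SMART-seq to both was not particular to this list. The 8 hair germ genes supported by both were Cdh3, Runx1, Ptch1, Bmpr1a, Cux1, Fgfr1, Tgfbr2 and Cxcl14. In all, 5 of 17 tested genes (Cdh3, Lgr5, Runx1, Hoxc13 and Bmpr1a) were higher by SMART-seq and 0 by SHERRY2 (limma). The median log2 difference was 1.60, and over all tested genes it was −1.55. For the hair germ list it was 2.45 with TMM scaling and 2.39 in edgeR (11 genes higher by SMART-seq). Both settings also raised the median of the genes supported by both. Without SMART-seq mouse 2, Hoxc13 and Bmpr1a lost their call, as they did without either SHERRY2 mouse.

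Cdh3 (P-cadherin), a cell adhesion protein used to mark the hair germ, had 186 and 238 CPM by SMART-seq, 36.6 and 37.1 CPM by SHERRY2 and 204 and 172 CPM in the bulge. Its SHERRY2 hair germ libraries were the lowest of the 6, 5.76-fold under SMART-seq (log2 difference 2.48 ± 0.25, limma adjusted p = 0.0399). Runx1, a transcription factor active at the bulge and hair germ border, had 388 and 446 CPM against 33.3 and 74.1 CPM, with 46.1 and 58.0 CPM in the bulge. The factor Hoxc13, which drives hair keratin genes, had 44.7 and 122 CPM by SMART-seq and 4.00 and 4.12 CPM by SHERRY2, below the receptor floor. Lef1, the Wnt-responsive factor whose level sets hair germ apart from bulge, had 29.0 and 33.1 CPM by SMART-seq, 12.7 and 24.7 CPM by SHERRY2 and 3.22 and 2.71 CPM in the bulge. Both protocols thus placed Lef1 above the bulge, but the SHERRY2 values lay under the receptor floor of their own libraries.

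Against the bulge, the summed hair germ list read differently in the 2 protocols. It came to 2843 and 3653 CPM by SMART-seq, 875 and 1155 CPM by SHERRY2, and 1659 and 1469 CPM in the bulge. Relative to the bulge mean that is 2.08 ± 0.37 (SD, n = 2) by SMART-seq and 0.65 ± 0.13 (SD, n = 2) by SHERRY2. The summed bulge list had 21127 and 11004 CPM by SMART-seq, on either side of the 12372 and 12665 CPM of the bulge libraries, and 7536 and 6066 CPM by SHERRY2, under both. By the hair germ list the SMART-seq libraries lay above the bulge, but that ratio crosses protocols and cannot check the hair germ label. Within SHERRY2, the WT hair germ libraries lay under the bulge for hair germ and bulge genes alike. The bulge libraries were deeper, with 20485288 and 14023829 reads on the shared symbols. They also took more RNA and were counted in a separate table, so cell type, depth and RNA input cannot be told apart in this contrast. With TMM scaling the ratios of the hair germ list were 1.85 by SMART-seq and 0.305 by SHERRY2. One of the 2 SHERRY2 hair germ libraries labelled cKO had 1725 CPM on the list and the other 920 CPM.

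All 25 genes of the bulge stem cell list had reads in each of the 4 libraries, 15 of them were supported by both protocols, and 13 were higher by SMART-seq with 0 higher by SHERRY2 (limma; 19 and 0 in edgeR). Their median log2 difference was 1.92, and 2.84 with TMM scaling. Sox9, a transcription factor of follicle stem cells, had 715 and 829 CPM by SMART-seq and 47.3 and 30.9 CPM by SHERRY2, a 19.7-fold gap, with 86.9 and 129 CPM in the bulge. Postn, an extracellular matrix protein, had 5446 and 987 CPM against 80.6 and 128 CPM. Lhx2, another stem cell factor, had 428 and 360 CPM against 36.6 and 67.9 CPM. Cd34, the surface protein used to sort bulge cells, had 557 and 119 CPM against 21.3 and 51.5 CPM and did not pass (limma adjusted p = 0.072). In each of these 4 genes the lowest SMART-seq library was above the highest SHERRY2 library. Itga6, a basal integrin also used for sorting, ran from 290 to 602 CPM by SMART-seq with both SHERRY2 libraries between (440 and 391 CPM), and Hopx was the only gene of the list with a negative difference (−1.07 ± 0.36), which did not pass. The call count of 13 dropped to 4 without either SHERRY2 mouse and to 7 without SMART-seq mouse 1.

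Of 22 basal and outer root sheath genes, 19 were supported by both protocols, and 6 were higher by SMART-seq and 0 by SHERRY2 (median 1.02, and 1.95 with TMM scaling). Trp63, the master regulator of stratified epithelium, had 983 and 980 CPM by SMART-seq and 175 and 124 CPM by SHERRY2. Krt6a, a keratin of the companion layer, had 351 and 1622 CPM against 21.3 and 6.18 CPM, a 71.8-fold gap. By contrast Krt14, Krt5, Itgb4 and Lamb3 had differences between −0.63 and 0.05, none of which passed. The 6 calls became 1 without either SHERRY2 mouse.

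The Wnt ligands ran the other way from their receptors. Of 15 ligands, 6 were higher by SHERRY2 and 0 by SMART-seq, with a median log2 difference of −1.17 (−0.31 with TMM scaling, −0.68 in edgeR). Over all tested genes 27.1% were called higher by SHERRY2 and 3.97% by SMART-seq. The median over all tested genes was −1.55 (−1.04 with TMM scaling, −0.20 in edgeR). The ligands thus lay further to the SHERRY2 side than all genes in edgeR only. The 6 called ligands were Wnt2, Wnt3, Wnt3a, Wnt4, Wnt7b and Wnt16. Of 26 receptors, co-receptors and inhibitors, 10 were higher by SMART-seq and 1 by SHERRY2, with a median of 1.00 (1.92 with TMM scaling). Of 15 tested transducers and targets, 3 were higher by SMART-seq and 1 by SHERRY2.

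Wnt3, a ligand that activates beta-catenin signalling in follicle epithelium, had 9.53 and 5.12 CPM by SMART-seq, 129 and 103 CPM by SHERRY2, and 105 and 119 CPM in the bulge. Both SMART-seq libraries lay about an order of magnitude under the other 4, a 15.8-fold difference (log2 −3.85 ± 0.40, limma adjusted p = 0.0399). Wnt16 had 0.780 and 0.213 CPM by SMART-seq, 49.3 and 63.8 CPM by SHERRY2 and 37.9 and 27.0 CPM in the bulge, and was the only ligand supported by SHERRY2 alone. Wnt3a had 1.39 and 0.639 CPM against 24.6 and 35.0 CPM, with 41.8 and 45.6 CPM in the bulge. Wnt7b had 26.1 and 6.29 CPM against 145 and 124 CPM, and Wnt4 51.2 and 42.3 CPM against 317 and 134 CPM. For all 5 of these ligands the bulge libraries lay nearer to the SHERRY2 hair germ libraries. Wnt2, at 4.66 and 12.4 CPM by SHERRY2 and 0 in the SMART-seq and bulge libraries, stayed under the receptor floor. Wnt10a, a ligand of the growing hair germ, had 44.1 and 4.26 CPM against 115 and 90.6 CPM and did not pass (limma adjusted p = 0.123). Without SHERRY2 mouse 1 the calls of Wnt3, Wnt4 and Wnt7b were lost, without SHERRY2 mouse 2 those of Wnt3, Wnt3a and Wnt7b, and with TMM scaling those of Wnt4 and Wnt7b.

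Among the Wnt receptors, Fzd6 had 146 and 266 CPM by SMART-seq, 5.33 and 0 CPM by SHERRY2 (8 and 0 reads) and 121 and 144 CPM in the bulge. The hair germ SHERRY2 libraries were the only ones near 0. Fzd7 had 506 and 404 CPM against 36.6 and 32.9 CPM, and Fzd1 211 and 368 CPM against 18.0 and 20.6 CPM. The co-receptor Lrp6 had 346 and 505 CPM against 52.6 and 55.6 CPM. Lgr4 and Lgr5, receptors for R-spondins, which raise Wnt receptor levels at the cell surface, were 13.6-fold and 9.75-fold higher by SMART-seq. Lgr5, the stem cell marker, had 229 and 174 CPM against 16.7 and 24.7 CPM, with 60.9 and 68.7 CPM in the bulge. Sfrp1, a secreted Wnt inhibitor, had 543 and 286 CPM against 50.6 and 45.3 CPM. Fzd10 was the exception, with 18.0 and 18.1 CPM by SMART-seq, 108 and 67.9 CPM by SHERRY2 and 75.2 CPM in each bulge library. The ubiquitin ligases Znrf3 and Rnf43, which remove Wnt receptors, had log2 differences of −0.14 ± 0.25 and 0.37 ± 0.30. Of the 11 calls, 5 were kept without SHERRY2 mouse 1 and 4 without SHERRY2 mouse 2, and TMM scaling lost that of Fzd10.

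In the transducers, Ctnnb1 (beta-catenin) had 602 and 1438 CPM by SMART-seq and 148 and 103 CPM by SHERRY2, an 8.13-fold gap, with 588 and 633 CPM in the bulge. Apc, of the complex that destroys beta-catenin, had 288 and 275 CPM against 79.9 and 105 CPM. Axin1 and Axin2, scaffold proteins of that complex, had log2 differences of −0.19 ± 0.24 and −0.11 ± 0.41. Axin2, a direct Wnt target used as a readout of the pathway, had 59.9 and 34.0 CPM by SMART-seq and 58.0 and 41.2 CPM by SHERRY2, under the 145 and 138 CPM of the bulge in both protocols. Myc and Ccnd1 did not pass either. Nkd2, an inhibitor, was 17.4-fold higher by SHERRY2 (1.39 and 2.24 against 30.0 and 32.9 CPM). Of the 4 calls among transducers, 1 or 2 were kept when any 1 library was left out.

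**Figure D2:**
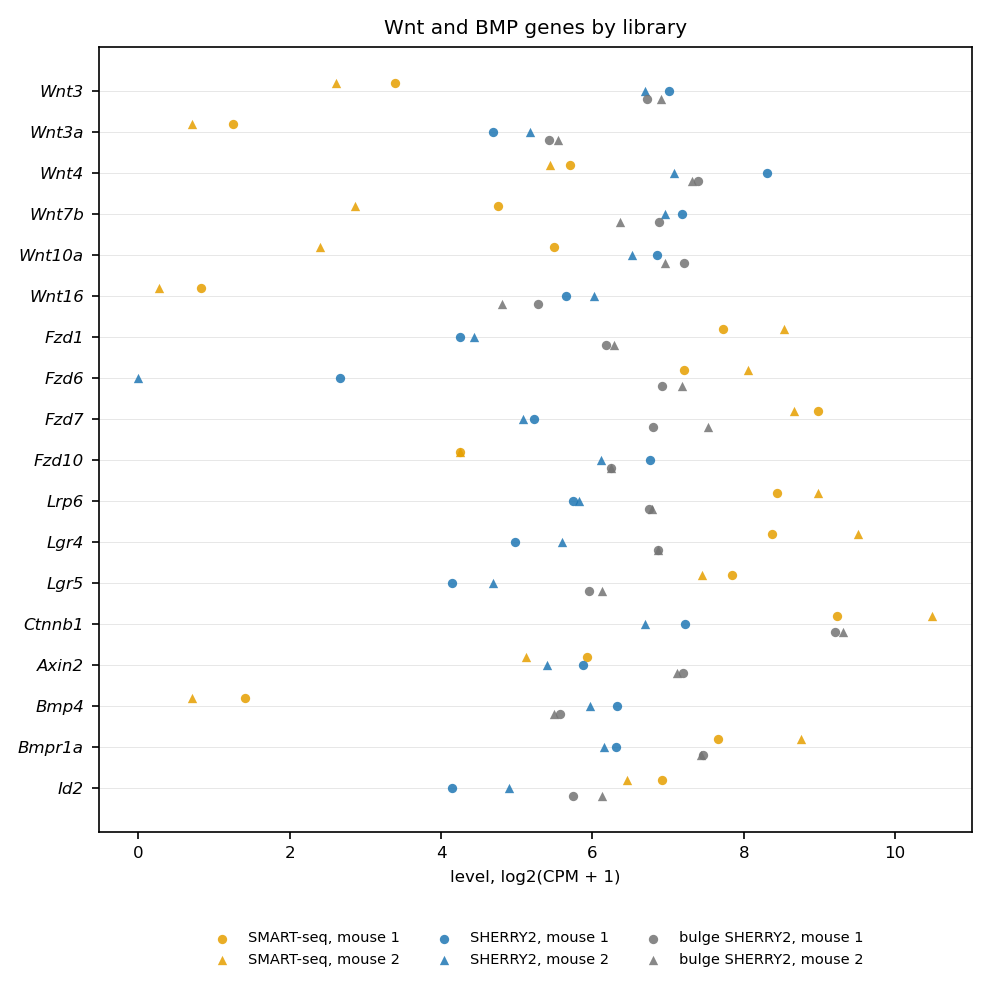
Level of 18 Wnt and BMP genes as log2(CPM + 1) (x axis) in each WT library; orange is SMART-seq hair germ, blue SHERRY2 hair germ, grey SHERRY2 bulge, with circles for mouse 1 and triangles for mouse 2. The 6 ligands from Wnt3 to Wnt16 and Bmp4 lie further right by SHERRY2, and Fzd1, Fzd6, Fzd7, Lrp6, Lgr4, Lgr5 and Ctnnb1 further right by SMART-seq, while Axin2 overlaps.

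Of 12 Hedgehog pathway genes, 7 were supported by both protocols, and 2, the factor Gli2 and the co-receptor Gas1, were higher by SMART-seq (8 in edgeR), with 0 higher by SHERRY2. The median log2 difference was 1.73, and 2.64 with TMM scaling. The ligand Shh had 1.13 and 19.4 CPM by SMART-seq and 1.33 and 8.24 CPM by SHERRY2, the latter under the receptor floor, against 0.0488 and 0.784 CPM in the bulge. Ptch1, the Hedgehog receptor and itself a target of the pathway, had 135 and 458 CPM against 41.3 and 113 CPM, and Gli1, the other standard target, 61.0 and 120 CPM against 12.7 and 28.8 CPM. In Shh, Ptch1 and Gli1 mouse 2 was the higher library within each protocol, and the difference between protocols did not pass for any of these 3 (limma adjusted p from 0.0574 to 0.78).

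Of 24 BMP pathway genes, 12 were supported by both, and 8 were higher by SMART-seq and 2 by SHERRY2 (median 1.07, and 1.97 with TMM scaling). The 2 on the SHERRY2 side were the ligand Bmp4 and the receptor Bmpr1b. Bmpr1b had 0 and 1.71 CPM by SMART-seq and 10.7 and 10.3 CPM by SHERRY2, under its receptor floor, and its call was lost with TMM scaling, in edgeR and when any 1 library was left out. Bmp4, which holds follicle stem cells at rest, had 1.65 and 0.639 CPM by SMART-seq (19 and 6 reads), 79.3 and 61.8 CPM by SHERRY2, and 46.8 and 44.0 CPM in the bulge. The SMART-seq libraries were again the only ones near 0 (61.7-fold, log2 −5.09 ± 0.43, limma adjusted p = 0.0399), a call that was lost without SHERRY2 mouse 2. Bmp2 (30.1 and 32.1 against 51.3 and 70.0 CPM) and Bmp7 (95.8 and 129 against 69.3 and 53.5 CPM) did not pass. The receptors Bmpr1a, Bmpr2 and Acvr2a, the signal transducer Smad5, the inhibitor Smad7 and the target genes Id1, Id2 and Id4 were higher by SMART-seq. Id2, for one, had 120 and 86.5 CPM against 16.7 and 28.8 CPM. Of the 10 calls, 9 were kept with TMM scaling and in edgeR, 4 without either SMART-seq mouse, 4 without SHERRY2 mouse 1 and 2 without SHERRY2 mouse 2. Bmp4, Wnt7b, Lgr5, Runx1, Ctnnb1 and Gli1 each overlap another annotated gene, and the sources used here do not say whether counting used strand, so reads of opposite partners cannot be separated.

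The other signalling lists had positive medians too, 0.82 for TGF-beta, 0.90 for Notch, 0.54 for FGF and 0.68 for m6A genes. In the libraries labelled cKO these medians were 0.49, 1.22, −0.06 and 0.58 in the same order. The WT medians rose with TMM scaling and in edgeR, but so did that of the genes supported by both (from 0.01 to 0.92 and 0.45). Their kept sign is therefore no further support. For TGF-beta, 5 of 13 genes were higher by SMART-seq (Skil, Tgif1, Tgfbr1, Smad2 and Ski) and 0 by SHERRY2, but 0 to 3 of these calls were kept when 1 library was left out. For Notch, the receptor Notch1 had 563 and 1439 CPM against 153 and 126 CPM, and the ligand Jag1 502 and 605 CPM against 48.0 and 82.4 CPM, with Notch2 as the third gene of 14 higher by SMART-seq and Dll4 higher by SHERRY2, and 1 of these 4 calls was kept without SHERRY2 mouse 2. For FGF, Dusp6, a feedback phosphatase of the pathway, had 193 and 160 CPM against 43.3 and 30.9 CPM, and Etv4 was also higher, while the ligands Fgf7 and Fgf22 were called higher by SHERRY2 from values under its receptor floor. Of 21 m6A genes, 15 were supported by both protocols, and 8 were higher by SMART-seq and 1 by SHERRY2. Alkbh5 itself had 165 and 117 CPM against 63.3 and 61.8 CPM. The writers Mettl3 and Mettl14 had log2 differences of −0.22 ± 0.28 and 0.00 ± 0.29. Igf2bp1, a reader, had no SMART-seq or bulge read and 15.3 and 59.7 CPM by SHERRY2. Of the 9 m6A calls, 2 were kept without either SMART-seq mouse.

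**Figure D3:**
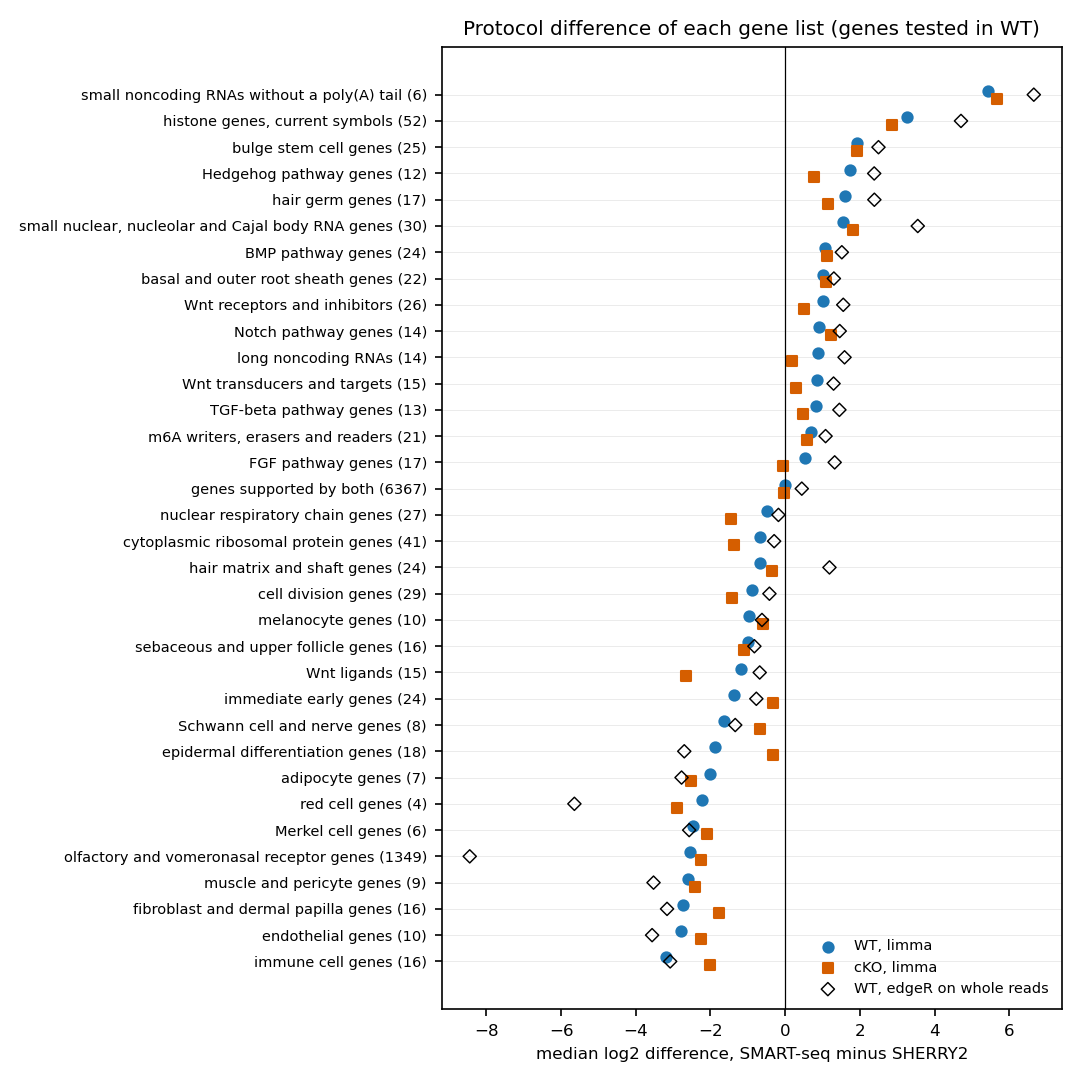
Median log2 difference, SMART-seq minus SHERRY2 (x axis), of each gene list with its number of tested genes in brackets; circles are WT libraries (limma), squares the libraries labelled cKO (limma) and diamonds WT libraries in edgeR. Among the circles, small noncoding RNAs and histone genes lie furthest right and immune, endothelial and fibroblast genes furthest left, with genes supported by both at 0.01.

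The 10 genes with the largest differences toward SMART-seq, among genes it supported, were Gm22009, Snord17, Rnu12, Jund, Gm25395, Egr2, Gm22442, Cdc42bpg, Gm26448 and Snora23. Rnu12, Snord17 and Snora23 are small structural RNAs. Rnu12, the U12 small nuclear RNA of the minor spliceosome, had 220 and 228 CPM by SMART-seq, 0.666 and 0 CPM by SHERRY2 and 0 in the bulge. Snord17, a small nucleolar RNA, had 273 and 353 CPM against 2.00 and 0 CPM. Snord17 overlaps Snx5 and Snora23 overlaps Ipo7 on the same strand, while Rnu12 overlaps no other annotated gene. All 6 tested members of the list of small RNAs without a poly(A) tail were higher by SMART-seq, among them the Y RNAs Rny1 and Rny3, with a median log2 difference of 5.44. Of 55 small nuclear, nucleolar and Cajal body RNA symbols of both tables, 27 were supported by SMART-seq and 0 by SHERRY2.

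Histone genes, whose replication-dependent messages end in a stem-loop in place of a poly(A) tail, showed the same side. Under their current symbols 55 were in both tables, 52 were supported by SMART-seq and 0 by SHERRY2, and 30 of 52 tested were higher by SMART-seq with 0 higher by SHERRY2 (40 and 0 in edgeR). They summed to 1711 and 2889 CPM by SMART-seq, 149 and 276 CPM by SHERRY2 and 114 and 225 CPM in the bulge. This list replaced one under older symbols, of which 0 matched, after the tables were seen. Of the 30 calls, 23 were kept without SMART-seq mouse 1, 9 without SMART-seq mouse 2, 12 without SHERRY2 mouse 1 and 10 without SHERRY2 mouse 2. The nuclear RNA Malat1 had 17550 and 18396 CPM by SMART-seq, 607 and 430 CPM by SHERRY2 and 394 and 574 CPM in the bulge, so all 4 SHERRY2 libraries were far under both SMART-seq libraries. In edgeR the Malat1 difference did not pass (adjusted p = 0.0573). Neat1, another nuclear RNA, had 1870 and 2721 CPM by SMART-seq and 550 and 447 CPM by SHERRY2, but 1544 and 2297 CPM in the bulge.

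A few genes were near 0 in the hair germ SHERRY2 libraries and high in the other 4. At 50 CPM or more in both SMART-seq and both bulge libraries and at most 5 reads in each SHERRY2 hair germ library stood 8 genes, a rule chosen after the values were seen: 0610030E20Rik, Egr2, Fam91a1, Galnt2, Jund, Nfya, Srsf1 and Zhx1. Jund, a subunit of the AP-1 transcription factor, had 2805 and 988 reads by SMART-seq (243 and 105 CPM), 0 reads in each SHERRY2 library and 1555 and 1038 CPM in the bulge. It was at least 115-fold higher by SMART-seq, with 3 counts over both SHERRY2 libraries together as the floor. Srsf1, a splicing factor, had 244 and 308 CPM, 2.66 and 2.06 CPM, and 301 and 400 CPM in the same order. Egr2 had 221 and 207 CPM, 2.00 and 0 CPM, and 416 and 343 CPM. Jund, Srsf1, Galnt2, 0610030E20Rik and Zhx1 each overlap another annotated gene, while Egr2, Fam91a1 and Nfya do not. What part the counting of shared reads has in these gaps was not tested. Under the reverse rule, with at most 20 SMART-seq reads, stood 1 gene, Calm5, a calmodulin-like protein of epidermis with 1.56 and 0.107 CPM by SMART-seq, 179 and 59.7 CPM by SHERRY2 and 59.5 and 87.4 CPM in the bulge.

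Immediate early genes, which cells switch on within minutes of stress or stimulation, also split within the list. Of 24, 3 were higher by SMART-seq (Jund, Egr2 and Fosl2) and 7 by SHERRY2 (Fos, Jun, Junb, Atf3, Klf2, Klf6 and Ier2). Fos had 2538 and 1467 CPM by SMART-seq, 9897 and 6397 CPM by SHERRY2 and 8551 and 5709 CPM in the bulge. Klf2 had 23.7 and 19.5 CPM against 494 and 325 CPM, while Fosb and Egr1 overlapped between protocols. The list summed to 19376 and 9563 CPM by SMART-seq and 41958 and 30478 CPM by SHERRY2. The median log2 difference was −1.37 (−0.44 with TMM scaling), and edgeR called 6 genes higher by SMART-seq and 2 by SHERRY2, not Fos (adjusted p = 0.35). The calls of Fos, Jun, Junb, Ier2, Atf3 and Klf6 were lost with TMM scaling, in edgeR and without SHERRY2 mouse 1, and those of Fosl2 and Jund were lost as well without SHERRY2 mouse 2.

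All 41 cytoplasmic ribosomal protein genes were supported by both protocols, and 13 were higher by SHERRY2 and 0 by SMART-seq. The median log2 difference was −0.66 but turned to 0.27 with TMM scaling, where none of the 13 calls was kept. In edgeR it was −0.30, with 1 gene called higher by SMART-seq and 0 by SHERRY2. Rpl13 had 1039 and 739 CPM against 3691 and 2948 CPM, and Rps14 660 and 628 CPM against 735 and 585 CPM. Nuclear genes of the respiratory chain had a median of −0.48 (0.41 with TMM scaling, −0.18 in edgeR). Cell division genes had −0.90 (0.01 with TMM scaling, −0.42 in edgeR). In the libraries labelled cKO the medians of the ribosomal, respiratory and division lists were −1.36, −1.45 and −1.43, beside −1.15 over all genes. There 31 of 41 ribosomal genes were called higher by SHERRY2 and 0 by SMART-seq, against 43.6% and 8.46% of all genes tested. Of the 13 ribosomal calls, 2 to 7 were kept when 1 library was left out, with 2 without SHERRY2 mouse 2 and 3 without SMART-seq mouse 2. Among cell division genes 21 of 29 were supported by both and only Ccne1 passed the test, a call lost in edgeR and when any 1 library was left out.

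On the SHERRY2 side, the 10 largest differences among genes it supported were Muc16, Gm55330, Gm37985, Hmcn2, Mir6236, Calm5, Hydin, Csmd2, Gm15564 and Ttn. Muc16, a giant membrane mucin, had 0 SMART-seq reads in both mice, 52.0 and 103 CPM by SHERRY2 and 0.244 and 0 CPM in the bulge. It was at least 540-fold higher by SHERRY2, with 3 counts over both SMART-seq libraries together as the floor. Ttn, the giant muscle protein titin, had 5.72 and 3.09 CPM against 176 and 412 CPM, with 6.49 and 0.570 CPM in the bulge. Hydin, a protein of motile cilia, had 0.173 and 0 CPM against 40.6 and 101 CPM. Lars2, the mitochondrial leucine tRNA ligase, was picked after its values were seen and had 50.9 and 39.0 CPM against 1700 and 2152 CPM, and 289 and 6099 CPM in the bulge so the bulge mice lay on either side of the SHERRY2 hair germ mice. Mir6236 was the one microRNA gene among the 10, at 0 and 0.213 CPM by SMART-seq, 58.0 and 80.3 CPM by SHERRY2, and 0.0976 and 0.856 CPM in the bulge. These reads were counted over the 123 bases of the Mir6236 gene and do not show whether the mature microRNA was present. Lars2, Mir6236 and Gm15564 were looked up together under the label of ribosomal RNA locus genes. They do not share a locus: Lars2 and Mir6236 lie apart on chromosome 9 and Gm15564 on chromosome 16. Whether their reads come from ribosomal RNA was not tested. The mature sequence of Mir6236 in RefSeq (GRCm38.p6, chr9:110281353-110281371, plus strand) is shown with the seed, bases 2 to 8, in capitals. It is short beside giant genes such as Muc16 and Ttn.
mmu-miR-6236: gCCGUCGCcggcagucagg

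Reads per gene on genes that were silent elsewhere grew with gene length. There were 18870 genes of known exonic length with 0 reads in both SMART-seq WT libraries and both bulge libraries. Of these, 73.2% had a read in SHERRY2 mouse 1 and 67.9% in SHERRY2 mouse 2, taking 3.08% and 8.05% of the reads. In the shortest of 5 equal length classes (median 214 bases) the mean was 0.677 and 0.572 reads a gene, and in the longest (median 2875 bases) 6.20 and 5.26. The mean rose at each step of length in both mice, while the reads per kilobase fell, from 3.22 to 1.71 in mouse 1 and from 2.72 to 1.45 in mouse 2. Among the 6367 genes supported by both protocols, longer genes leaned to SMART-seq: the median difference went from −0.70 in the shortest of 5 classes to 0.49 in the longest. What part such reads have in the SHERRY2 level of any 1 gene was not tested.

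**Figure D4:**
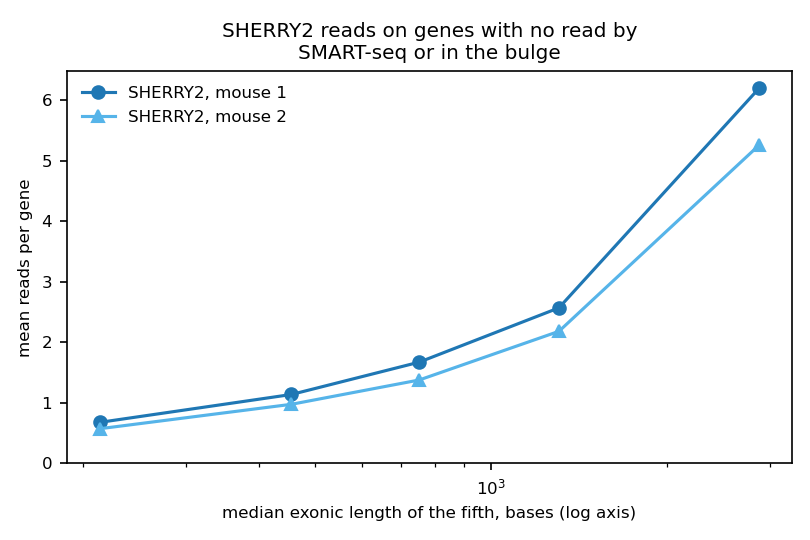
Mean SHERRY2 reads per gene (y axis) against the median exonic length of each of 5 length classes (x axis, bases, log scale) for 18870 genes with no read by SMART-seq or in the bulge; circles are mouse 1 and triangles mouse 2. The mean rose from 0.677 to 6.20 reads in mouse 1 and from 0.572 to 5.26 in mouse 2.

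Among the markers of other skin cells, the immune list had the most calls, all higher by SHERRY2, a side on which 27.1% of all tested genes and 893 of 1349 tested receptor genes (median −2.54) were also called. Of 16 immune cell genes, 14 were higher by SHERRY2 and 0 by SMART-seq (limma and edgeR), and the list summed to 63.5 and 44.5 CPM by SMART-seq, 488 and 962 CPM by SHERRY2 and 345 and 285 CPM in the bulge. H2-Aa, an MHC class II chain of antigen-presenting cells, had 5.28 and 5.76 CPM against 73.9 and 161 CPM, with 51.1 and 41.8 CPM in the bulge. Of the 14 immune calls, 6 were kept without SMART-seq mouse 1, 7 without SMART-seq mouse 2, 10 without SHERRY2 mouse 1 and 7 without SHERRY2 mouse 2. Of 16 fibroblast and dermal papilla genes, 7 were higher by SHERRY2, such as Pdgfra (1.91 and 2.56 against 23.3 and 53.5 CPM), though the list summed to 346 and 171 CPM by SMART-seq and 362 and 634 CPM by SHERRY2. Of 10 endothelial genes, 5 were higher by SHERRY2, with sums of 18.1 and 4.90 CPM against 77.9 and 185 CPM, and of the endothelial list 3 genes were at 0 in each SMART-seq library and none in SHERRY2. Of 10 muscle genes 4 were higher by SHERRY2, of 7 adipocyte genes 3, of 7 Merkel cell genes 3, of 6 red cell genes 2, of 10 melanocyte genes 1 and of 8 Schwann cell genes 0. Without either SMART-seq mouse, 1 of the muscle calls and 0 of the adipocyte, Merkel cell and melanocyte calls were kept. When 1 library was left out, 3 to 5 of the fibroblast calls and 1 to 5 of the endothelial calls were kept, the fewest endothelial ones without either SMART-seq mouse. Of the endothelial, melanocyte, muscle, adipocyte, red cell and Merkel lists 0 genes were supported by both protocols.

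Suprabasal epidermal genes differed between the SHERRY2 mice as well as between protocols. The list's median log2 difference was −1.89 between protocols. Mouse 2 minus mouse 1 gave −2.28 by SHERRY2 and, smaller, −0.80 by SMART-seq. Krt1, a keratin of differentiating epidermis, had 111 and 9.17 CPM by SMART-seq and 2642 and 1097 CPM by SHERRY2, with 1037 and 1601 CPM in the bulge (log2 −5.66 ± 1.29, limma adjusted p = 0.0422). Krt10, its partner, had 421 and 62.9 CPM against 4340 and 834 CPM and did not pass (adjusted p = 0.095). Of 18 epidermal genes, 4 were higher by SHERRY2 (Krt1, Flg, Tgm3 and Tgm1) and 2 by SMART-seq (Calml3 and Sprr1a), and 8 and 2 in edgeR. With TMM scaling Krt1, Flg and Tgm1 lost the call, and without SHERRY2 mouse 1 or mouse 2 so did Krt1 and Flg. The list summed to 4133 and 2598 CPM by SMART-seq and 22624 and 3457 CPM by SHERRY2, with SHERRY2 mouse 1 above the bulge libraries (10036 and 10232 CPM) and SHERRY2 mouse 2 under them. Of 16 sebaceous and upper follicle genes, 5 were higher by SHERRY2, 1 of which kept its call with TMM scaling.

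Mice of 1 protocol also lay apart in whole groups, with no test within a protocol. In SMART-seq, mouse 2 was the higher in 19 of 24 hair matrix and shaft genes and 28 of 29 cell division genes, and mouse 1 in 19 of 25 bulge genes and 22 of 24 immediate early genes. Krt71, a keratin of the inner root sheath, had 4.76 CPM in mouse 1 and 135 CPM in mouse 2, and Krt75 22.6 and 232 CPM. Grem1, a BMP inhibitor, had 518 CPM in mouse 1 and 40.3 CPM in mouse 2. In SHERRY2, mouse 1 was the higher in 16 of 18 epidermal genes and 41 of 41 ribosomal protein genes, and mouse 2 in 26 of 29 cell division genes, where mouse 2 was the higher in 31152 and mouse 1 in 12402 of all shared symbols. Lor, a protein of the cornified envelope, had 1881 CPM in mouse 1 and 18.5 CPM in mouse 2, and the protease Klk7 697 and 12.4 CPM. In the matrix and shaft list, 2 genes were higher by SMART-seq (Vdr and Trps1) and 3 by SHERRY2 (Krt31, Krt33a and Krt72, all under its receptor floor), and the list's median of −0.68 turned to 0.14 with TMM scaling and 1.19 in edgeR.

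**Figure D5:**
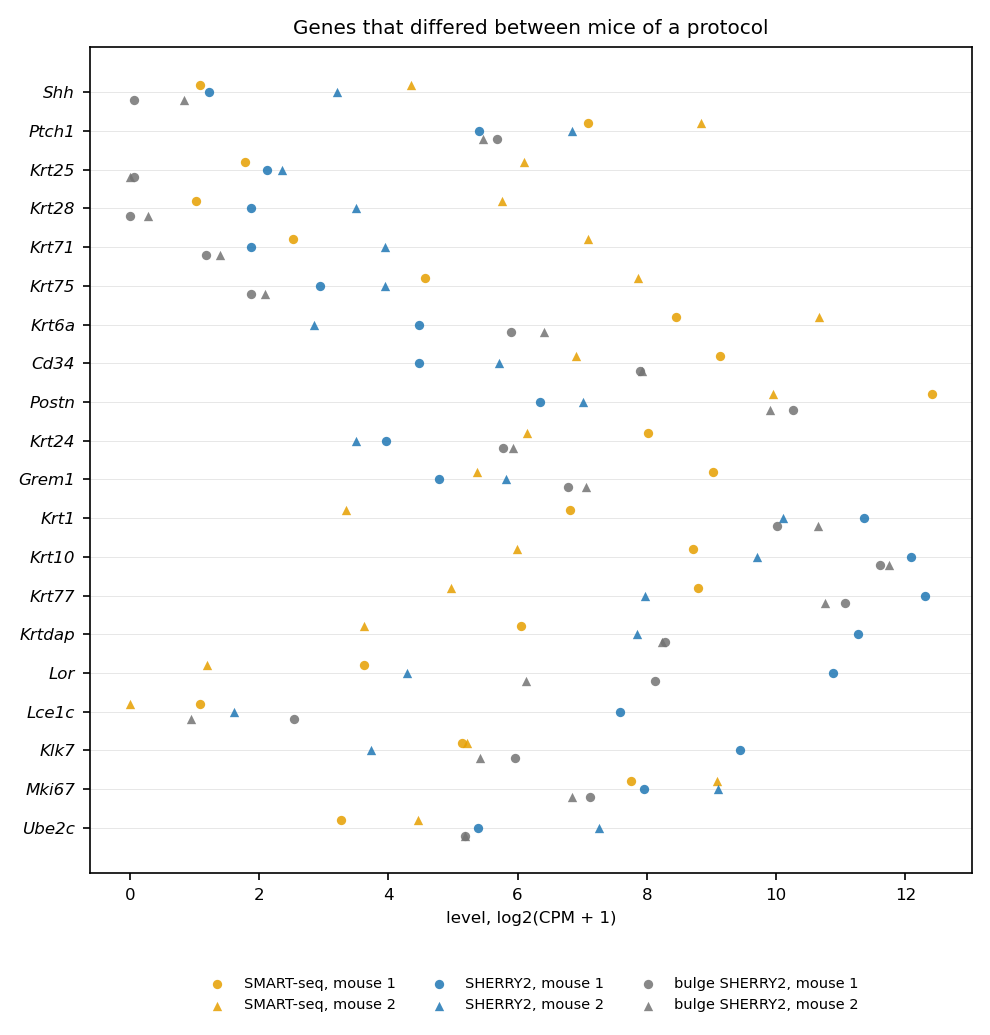
Level of 20 genes as log2(CPM + 1) (x axis) in each WT library, coloured as orange SMART-seq, blue SHERRY2 and grey bulge SHERRY2, with circles for mouse 1 and triangles for mouse 2. The genes were chosen after their values were seen: within SMART-seq the mice part in Krt25 to Krt75, Cd34, Postn and Grem1, and within SHERRY2 in Krt77, Krtdap, Lor, Lce1c and Klk7.

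The hair germ libraries labelled cKO gave the same comparison in 4 other libraries. Alkbh5, the targeted gene, had 103 and 129 CPM in the SMART-seq libraries labelled cKO against 165 and 117 CPM in WT, and 17.8 and 6.97 CPM against 63.3 and 61.8 CPM by SHERRY2. Both SHERRY2 libraries labelled cKO were under WT, and the SMART-seq libraries labelled cKO overlapped WT. Of the 1334 genes called higher by SMART-seq in WT, 1329 were tested in the libraries labelled cKO, 1317 (99.1%) had the same sign and 1053 (79.2%) were called. Of the 9104 called higher by SHERRY2, 7190 were tested, 7179 (99.8%) had the same sign and 6284 (87.4%) were called. Over all genes tested there, 26.6% had a positive and 73.4% a negative difference, and 52.1% were called (8.46% higher by SMART-seq and 43.6% by SHERRY2). A fit over all 8 libraries with a term for the difference of differences called 0 of 31192 genes (limma, smallest adjusted p = 0.982), with 844 at an unadjusted p under 0.05, and no other tool was run on that term.

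Gene by gene, the repeat held the largest gaps. Jund had 119 and 156 CPM in the SMART-seq libraries labelled cKO and 0.660 and 0.436 CPM by SHERRY2, and Srsf1 253 and 183 CPM against 3.30 and 1.31 CPM. Bmp4 and Wnt3 differed by −4.56 and −5.67 on the log2 scale, Sox9 by 4.03 and Malat1 by 5.64. In hair germ genes the 2 SHERRY2 libraries labelled cKO were far apart: Lgr5 had 89.8 and 10.9 CPM and Lef1 72.0 and 6.97 CPM, and 4 of 16 tested hair germ genes were called there, all higher by SMART-seq.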

How the data were processed

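The authors deposited raw read counts per gene for the SMART-seq libraries and, in another table, for the bulge libraries, whose exonic gene lengths were also used. For the SHERRY2 hair germ libraries the deposited values are a signal whose unit no header names, and they were taken as normalized counts because the other columns are those of a DESeq2 result. All of these values (100%, within 0.01 reads) were whole multiples of 1 step per library, and the whole reads so recovered were used. For the SHERRY2 batch, the submitters' processing notes name STAR and featureCounts with GRCm38 (mm10), beside FastQC, Trim Galore and DESeq2. The notes add fastp, HISAT2, SAMtools, deepTools, Subread and GRCm39 for the SMART-seq batch. The build of the bulge table is not given in the sources used here, but its gene positions are not those of GRCm38. It starts Mir6236 and Lars2 at bases 110110355 and 123195992 of chromosome 9, against 110281287 and 123366927 in GRCm38.p6.

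Tables were joined by symbol (56860 symbols by SMART-seq, 47243 by SHERRY2), with 147 repeated symbols summed. CPM over the 46992 shared symbols, as log2(CPM + 1), was tested with limma 3.58.1 (trend, R 4.3.3) for a mean of at least 1 CPM, two-sided, with Benjamini-Hochberg adjustment. The alternatives were edgeR 4.0.16 (quasi-likelihood, TMM), DESeq2 1.42.0, TMM scaling, other pseudocounts and filters, a replicate block and each library left out. DESeq2 and edgeR saw the counts and recovered reads. On simulated WT counts limma recovered 4 of 100 genes changed 4-fold and 89 of 100 changed 16-fold (32249 genes), and edgeR 48 and 100 (28361 genes). The changed genes were drawn from well expressed ones only. All genes had the same fixed spread, and unchanged genes the same mean level in both protocols. These rates therefore do not give the power for genes near the floor or for the spread of the real mice. With 2 libraries a protocol, p-values measure the spread between these libraries, and the labels do not say that same-numbered libraries come from 1 mouse. Chi-square per degree of freedom between mice was 131 (SMART-seq) and 9.38 (SHERRY2), so neither pair was counted as 1 library. These values do not part mouse from library preparation.

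Named genes are the 10 largest called differences in each direction among genes supported by the higher protocol with no overlap, the 10 highest per kilobase and the 5 smallest differences among genes supported by both, and members of the hair germ, bulge, Wnt, Hedgehog and BMP lists. Of the other lists, the rule takes the 4 largest and 2 smallest differences, and their other named members were chosen after their values were seen. The members and lists were chosen with earlier results of these data known. Some genes of the lists enter the counts but are not reported here by name.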

Additional observations from a re-analysis of the deposited data

Results flagged for a closer look

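Reads outside the shared symbols held 1 strong signal. Rn7sk, the 7SK small nuclear RNA that holds the elongation factor P-TEFb inactive, had 366043 reads in SMART-seq WT mouse 1 and 283033 in mouse 2. Its symbol was not among those shared by the tables, so these reads entered no comparison.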

How the results depend on the processing

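Of the 10438 WT calls, the count was 16243 with a pseudocount of 0.1, 3050 at a mean of at least 10 CPM, and 0 with a pseudocount of 5 or with no filter (limma; 13387 and 16505 genes had an unadjusted p under 0.05 there, and edgeR called 7231 and DESeq2 13895). Leaving out 1 library gave 1283 to 17176 calls in WT and 2682 to 11110 in the libraries labelled cKO, against 14644; the lone library of a protocol is then assumed to vary like the others. With the mouse number as a replicate block the counts were 12920 and 16540. Deviations of same-numbered mice correlated at 0.0673 across 6367 genes. With 2 pairs and a shallow SHERRY2 library, this value cannot show whether same-numbered libraries share a mouse. Genes supported by both numbered 3985 with the floor per kilobase, chosen after the data were seen, and 6403 to 9152 when 1 library was left out. The correlation of 0.816 across genes between protocols was 0.739 with a pseudocount of 0.1, 0.644 per kilobase, 0.633 over genes supported by both, and 0.724 to 0.829 when 1 library was left out. The summed hair germ markers of SHERRY2 against bulge, 0.649, were 0.305 with TMM scaling. Of the called genes of the naming rule and the lists (203 to 211 tested under each setting), 41 lost the call with TMM scaling and 27 in edgeR, 76 without SHERRY2 mouse 1, 105 without SHERRY2 mouse 2, 76 without SMART-seq mouse 1 and 84 without SMART-seq mouse 2. None of these called genes changed sign, but among the uncalled genes reported here, 2 were called with opposite signs when 1 or the other library of a protocol was left out: Klk7 (1.45 without SHERRY2 mouse 1, −4.26 without mouse 2) and Xist (3.82 without SMART-seq mouse 2, −4.65 without mouse 1). Xist was thus higher in SMART-seq mouse 1 than in SMART-seq mouse 2, and the sample titles do not give the sex of the mice. Except for fewer genes or libraries tested, the cause of these changes was not tested. Depth limits SHERRY2 mouse 2 most, where 1 read is 2.06 CPM.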
